A study of Mus musculus with 9 samples.

Results

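Mouse myotubes given dexamethasone together with THSG were compared with vehicle-treated myotubes. The comparison took the 3 libraries labelled dexamethasone plus THSG and the 3 vehicle libraries, 6 of the 9 libraries of the study, and covered every gene of the deposited expression table. C2C12 is an established line of mouse myoblasts from skeletal muscle, and its cells fuse into multinucleated myotubes when growth factors are withdrawn. The vehicle group received no drug, the middle group received 50 µM dexamethasone, and the combined group received 50 µM dexamethasone with 10 µM THSG, each for 24 h. THSG is the labels' abbreviation, commonly used for tetrahydroxystilbene glucoside, a compound of Polygonum multiflorum. The series title presents dexamethasone treatment as a model of muscle atrophy. No group received THSG alone, so an effect of THSG without the steroid cannot be told apart from its effect in the steroid's presence. All groups were 1 cell line at 1 dose of each drug and 1 time. The labels do not say whether replicates were separate cultures, and p-values measure only the spread between these libraries. The cell-line entry in the labels increments from sample to sample, whereas every title names C2C12, and the titles were followed.

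Dexamethasone is a synthetic glucocorticoid. It enters the cell and binds the glucocorticoid receptor, which leaves its chaperone complex, moves to the nucleus and acts at glucocorticoid response elements, whose classical form is a pair of inverted half-sites separated by a short spacer, or through other transcription factors at inflammatory genes. In skeletal muscle the hormone is known for raising ubiquitin ligases and autophagy genes, damping insulin and mTOR signalling, and shifting fuel use from glucose towards fat and amino acids.

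The deposited values are named counts but are fractional. They were treated as FPKM, a level in fragments scaled for gene length and library size. The table listed 10716 genes, and every value was above 1. Genes at or below 1 in any library are thus outside the analysis, and Tsc22d3, Klf15, Zbtb16, Angptl4, Mstn and Igf1 were not analysed here. The values of a library summed to between 400218 and 422379 FPKM, and the read depth behind them is unknown. All 14 myotube markers examined were listed, with means over the 9 libraries of 23.1 to 4710 FPKM, and the fast myosin light chain Mylpf ranked 3 of all genes in vehicle. Of 13 immune markers only Cd14 was listed and of 11 endothelial markers none. The 13 mitochondrially encoded genes had 0 calls in limma, and 0 at an unadjusted p under 0.05, with a median difference of 0.08.

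Myotubes given both drugs differed from vehicle at 3120 of 10716 genes, or 29.1%, in limma's test with Benjamini-Hochberg adjustment at 0.05. Of these, 1294 genes (12.1%) were higher and 1826 (17.0%) lower. These shares of all genes are the reference for the list counts below. The higher genes were 41.5% of those called, against 50.9% after median-ratio scaling and 49.8% after quantile normalization. At least 2-fold differences were called for 304 genes (2.84%), of which 134 were higher and 170 lower. The median difference over all genes was -0.04 on the log2(FPKM + 0.1) scale, used for every difference below, and single genes ranged from -2.65 to 7.10. Dexamethasone alone gave 3601 calls (33.6%) against the same vehicle libraries, 12.7% higher and 20.9% lower, so the steroid comparisons share controls and their values are given side by side. The direct comparison of both drugs with dexamethasone alone gave 0 calls in limma, with a smallest adjusted p of 0.227, and 777 genes at an unadjusted p under 0.05.

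The largest rise was that of Ctla2a, which encodes an inhibitor of cysteine proteases. Its levels were 7.59, 6.11 and 5.55 FPKM in vehicle, 893, 841 and 849 with dexamethasone, and 945, 820.0 and 900.2 with both drugs. The lowest treated library was far above the highest vehicle library, and the libraries with and without THSG overlapped. The difference from vehicle was 7.10 (SE 0.094, adjusted p = 3.64e-13 in limma), a 137-fold rise on this scale. Reads of Ctla2a and its close paralog Ctla2b can be hard to assign, and how the counting divided them is not given in the sources used here.

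Selenop, the secreted selenium carrier, was at 34.0, 30.2 and 33.3 FPKM in vehicle and at 465, 449 and 441 with both drugs, a difference of 3.79 (SE 0.051). The 2 groups did not overlap. Ccdc152 lies opposite Selenop on the other strand and overlaps it, and it rose by 3.78. The library kit was stranded, but the strand setting of the counting is not given in the sources used here, so reads of these 2 genes may not be separated. Il1rn, the interleukin-1 receptor antagonist, was at 3.82, 5.77 and 7.73 FPKM in vehicle and at 49.2, 49.3 and 55.6 with both drugs. Its difference of 3.19 had a wide SE of 0.24, and its vehicle libraries were the most spread of these genes relative to their level. Fam180a rose from 1.64, 2.78 and 2.41 FPKM to 20.1, 22 and 20.4.

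The largest falls included regulators of lipolysis, growth factor supply and matrix. G0s2, an inhibitor of adipose triglyceride lipase, was at 37.2, 33.1 and 28.6 FPKM in vehicle and at 5.31, 4.90 and 6.05 with both drugs, a difference of -2.58 (SE 0.16). Igfbp4, which binds insulin-like growth factors, went from 31.7, 36.6 and 33.9 FPKM to 5.64, 7.17 and 4.76, a difference of -2.54 (SE 0.12). Every library with both drugs was below every vehicle library for both genes. Dynap (-2.50), the metalloproteinase inhibitor Timp3 (-2.36), the collagen gene Col8a1 (-2.29), the matrix glycoprotein gene Tnc (-2.21), Gpr153 (-2.15) and the secreted adhesion protein gene Edil3 (-2.11) followed, also without overlap of the 2 groups. Groups did not overlap at 43.1% of all genes tested. The largest rises and falls were taken only from called genes with groups apart, so their lack of overlap was set by that choice. Genes named from the lists below were mostly those of smallest p, and that choice also favours separation.

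**Figure D1:**
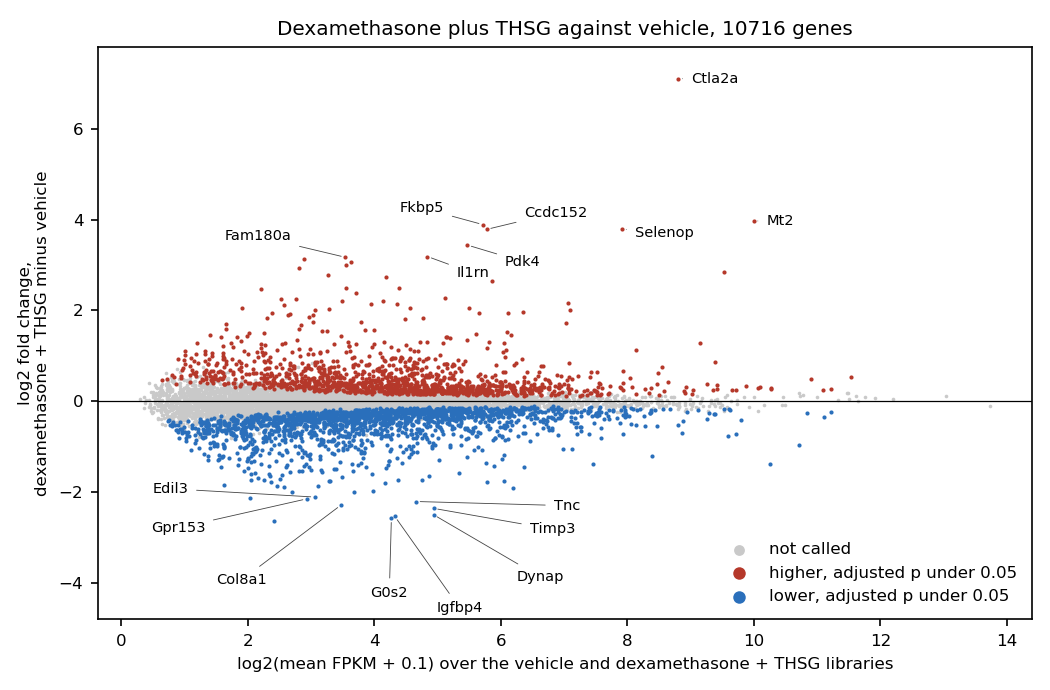
The log2 difference of dexamethasone plus THSG from vehicle (vertical axis) is plotted against the log2 mean FPKM of those 6 libraries (horizontal axis), with 1 point for each of 10716 genes. Red points are the 1294 higher and blue points the 1826 lower genes, and Ctla2a stands apart at 7.10 above the other labelled rises.

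Nr3c1 fell and Fkbp5 rose among the genes of the receptor and its partners. Of 26 listed members 21 were measured, 5 rose, 3 fell and 13 were not called, so 38.1% were called against 29.1% of all genes, and their median difference was 0.06. Nr3c1, the glucocorticoid receptor itself, was at 14.3, 16.3 and 14.6 FPKM in vehicle and at 12.5, 12.5 and 10.3 with both drugs. All 3 treated libraries were below the vehicle libraries, and the fall of 0.36 (SE 0.091, limma adjusted p = 0.0108) was close to the fall of 0.39 with dexamethasone alone. Fkbp4, the immunophilin that favours nuclear transport of the receptor, fell by 0.32. Fkbp5, the immunophilin that lowers the receptor's hormone affinity and is itself a receptor target, was at 6.76, 6.34 and 6.61 FPKM in vehicle, 97.6, 98.2 and 97.5 with dexamethasone, and 98.7, 101 and 95.9 with both drugs. The steroid groups were interleaved and both far above vehicle. Its rise of 3.89 (SE 0.044) had the smallest adjusted p of the comparison, 1.72e-13 in limma. H6pd, which supplies the cofactor for glucocorticoid reactivation in the endoplasmic reticulum, rose from 13.3, 12.2 and 14.5 FPKM to 31.3, 32.7 and 31.2, a 2.37-fold rise. Nrip1, a nuclear receptor corepressor, rose by 0.55. The other rises were those of the cochaperone gene Bag1 (0.22) and the acetyltransferase gene Ep300 (0.21).

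The receptor's classical target genes were mostly higher with both drugs. Of 47 listed targets 39 were measured, 28 rose, 2 fell and 9 were not called, and their median difference was 0.77. Among all genes 12.1% were higher and 17.0% lower. This list, like the others, was chosen with earlier results of these data known. Its excess over all genes is therefore a description and not a test. With dexamethasone alone 27 rose and 2 fell, with a median of 0.79. At least 2-fold differences were called for 15 of the 39, all of them rises, and at all 15 the libraries with both drugs lay above every vehicle library. Over the 39 targets the 2 groups were apart in the higher direction at 30 and in the lower at 2, against 17.9% and 25.2% of all genes.

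Promoter sequences were searched for the letters of a classical response element. They were taken from RefSeq on build GRCm38.p6, over 250 bases before to 50 bases after each annotated start, and 37 of the measured targets had an entry. The full palindrome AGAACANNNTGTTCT, which reads the same on both strands, was found in the promoters of 3 of 27025 genes (0.0111%), and Sgk1 was the one among 8296 genes of the expression table that had a promoter entry. The shorter letters GNACANNNTGTNC, also their own reverse complement and contained in the full palindrome, were found at 145 of 27025 genes (0.537%). Among the table's genes they stood at 31 of 8296 (0.374%), at 7 of 983 called higher (0.712%) and 5 of 1402 called lower (0.357%). Of the targets they stood at 4 of 37, namely Fam107a, Map3k6, Mt1 and Sgk1, and of 23 atrophy ligases with an entry at Trim63. Both lists were chosen with earlier results of these data known, so these shares are descriptions. Of the matched targets Map3k6 also rose and Fam107a fell, and their stretches are not shown. The stretches around the matches of Sgk1, Mt1 and Trim63 are shown as examples that rose. All are on the plus strand and 5′ to 3′, with the matched letters in capitals. They cover chr10:21993641-21993775 for Sgk1 (1 of its 6 promoter entries), chr8:94178935-94179067 for Mt1 and chr4:134314870-134314984 for Trim63.
Sgk1: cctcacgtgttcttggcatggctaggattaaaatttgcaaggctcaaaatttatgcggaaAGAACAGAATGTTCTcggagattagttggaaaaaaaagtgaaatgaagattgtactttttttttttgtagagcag
Mt1: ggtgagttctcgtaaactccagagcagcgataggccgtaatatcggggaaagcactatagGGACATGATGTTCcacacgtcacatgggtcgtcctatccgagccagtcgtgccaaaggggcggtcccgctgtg
Trim63: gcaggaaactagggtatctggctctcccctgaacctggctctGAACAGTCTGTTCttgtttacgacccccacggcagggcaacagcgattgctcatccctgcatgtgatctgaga

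The match began 189 bases before the annotated start at Sgk1, 94 before it at Mt1 and 208 before it at Trim63. A match is a description of the letters, and binding was not measured.

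Sgk1, a kinase that acts on ion channels and on FOXO factors, was at 15.0, 16.7 and 15.6 FPKM in vehicle, 101, 101 and 98.5 with dexamethasone, and 102, 97.0 and 101 with both drugs. Vehicle stood apart and the steroid groups overlapped. The difference from vehicle was 2.66 (SE 0.048, limma adjusted p = 5.82e-12). Mt1, a metal-binding metallothionein, was at 205, 190 and 152 FPKM in vehicle, 1085, 1216 and 1157 with dexamethasone, and 1290.5, 1292 and 1297 with both drugs, a difference of 2.84. Its paralog Mt2 was at 127, 135 and 107 FPKM in vehicle and at 2015, 1835 and 1914 with both drugs, a difference of 3.97. For both metallothioneins every library with THSG was above every dexamethasone library, by 0.17 for Mt1 (95% interval -0.03 to 0.37) and 0.11 for Mt2 (-0.05 to 0.28), and neither difference was called.

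Per1, a clock repressor, rose from 7.81, 7.55 and 8.45 FPKM to 23, 24.6 and 23.5, and the transcription factor gene Klf9 from 11.5, 11.4 and 11.9 to 26.5, 27.0 and 26.9. Groups were apart for both, with differences of 1.57 and 1.20. Errfi1, a feedback inhibitor of the epidermal growth factor receptor, rose by 1.36. Mertk, a receptor for clearing dying cells, rose by 2.47 from a low vehicle level of 1.28 to 1.33 FPKM, and the extracellular glutathione peroxidase gene Gpx3 rose by 1.96. The lower targets were Fam107a, at -0.74, and the transglutaminase gene Tgm2, at -0.52. Map3k6 was called at 0.50 with a limma adjusted p of 0.0429, near the threshold, and its call was lost in 10 of the alternative settings.

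The effect of adding THSG at these targets was bounded with the 95% interval of its difference from dexamethasone alone. For 30 of 39 targets the whole interval lay within 0.32 on the log2 scale either way, against 64.7% of all genes. The differences ran from -0.07 to 0.49 with a median of 0.03. Of the 15 targets that rose at least 2-fold, 11 were bounded in this way. Libraries with and without THSG overlapped at 33 of 39 targets. They were apart at the others, higher with THSG at 5 and lower at 1, a share near the 13.3% of all genes. At 3 of the 39 targets the unadjusted p in limma was under 0.05, namely Cebpd, Cebpb and Rhob. Among all genes it was so at 777 of 10716, a similar share.

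Cebpd, a transcription factor of the C/EBP family, had the largest gap among the 15. It was at 2.28, 2.18 and 1.97 FPKM in vehicle, 7.76, 7.57 and 6.30 with dexamethasone, and 10.1, 9.17 and 9.55 with both drugs. All 3 libraries with THSG were above all 3 with dexamethasone. The rise over vehicle was 2.11, against 1.70 with dexamethasone alone, and the gap of 0.41 (95% interval 0.19 to 0.64) had an unadjusted p of 0.00197 and a limma adjusted p of 0.413. Cebpb, its paralog, was not called against vehicle at 0.35, with 19.3, 12.9 and 10.3 FPKM in vehicle and 20.2, 19.5 and 13.7 with both drugs. These libraries overlapped, and the vehicle values spread almost 2-fold, from 10.3 to 19.3. Leaving out the first vehicle library gave 0.60 with an adjusted p of 0.0499. Cebpb had the largest gap over dexamethasone alone among the 39 targets. It was 0.49, with an upper 95% limit of 0.98, and was not called. Rhob, a small GTPase, was higher by 0.13 with a limma adjusted p of 0.0492, at the edge of the threshold, and its call was lost in 11 of the alternative settings.

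**Figure D2:**
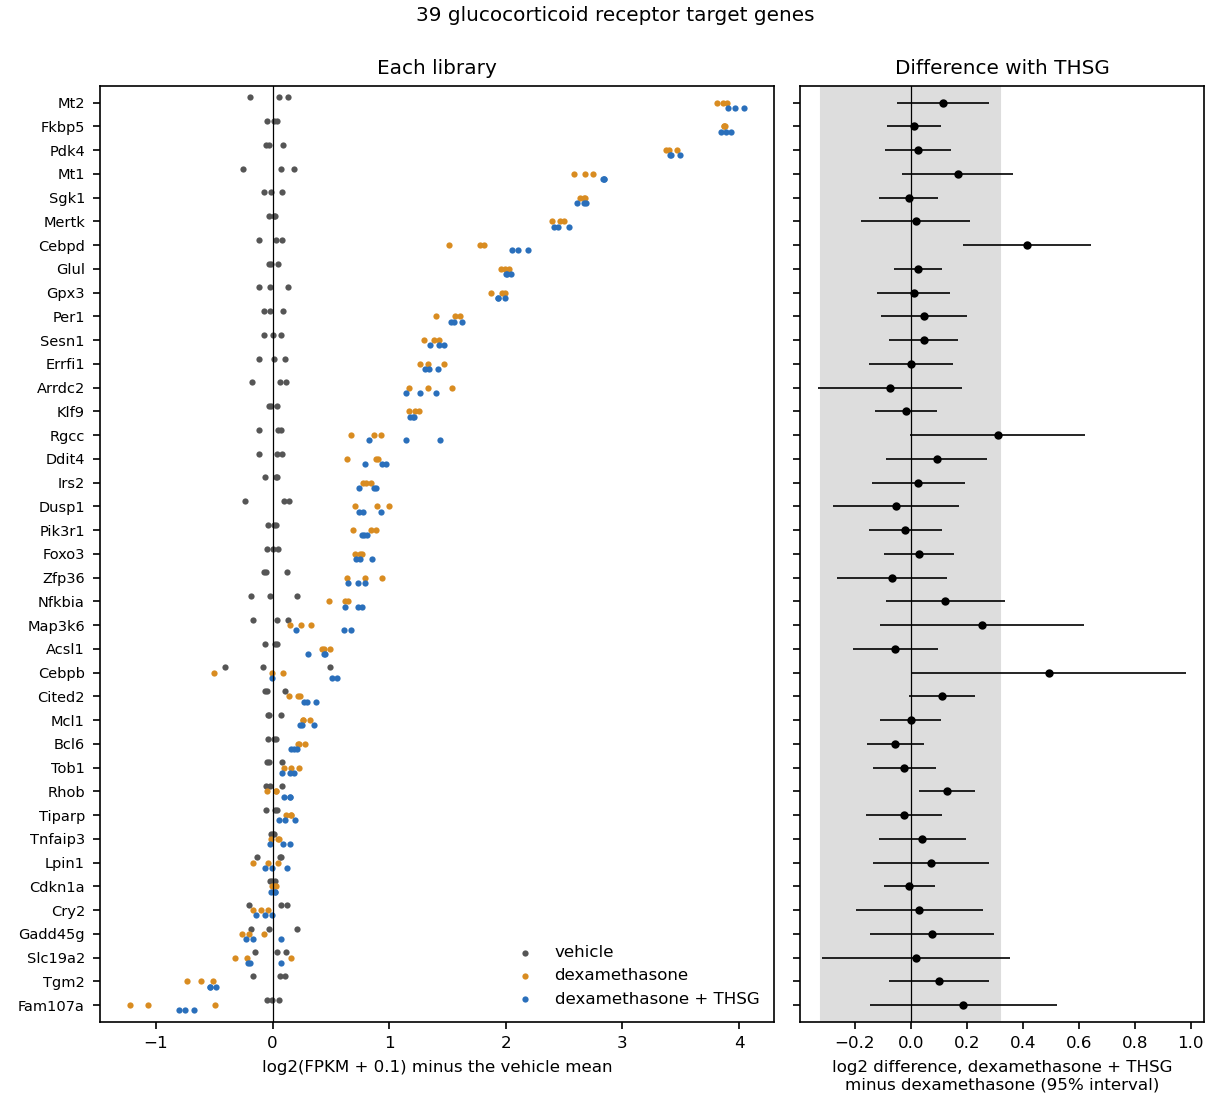
The left panel gives log2(FPKM + 0.1) minus the vehicle mean for each of the 9 libraries at 39 target genes, and the right panel the difference of dexamethasone plus THSG from dexamethasone with its 95% interval, with 0.32 either way shaded. Blue and orange points overlap at 33 genes, and the intervals of Cebpb and Cebpd reach farthest to the right.

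Anti-inflammatory effectors of the receptor were divided. Of 20 listed 14 were measured, 5 rose and 2 fell, against 12.1% higher and 17.0% lower among all genes. Their median difference was 0.11. The phosphatase gene Dusp1, which switches off p38 and JNK kinases, was at 27.0, 21.3 and 27.9 FPKM in vehicle and at 48.1, 42.1 and 43.3 with both drugs, a difference of 0.81 (SE 0.10). Nfkbia, the inhibitor that holds NF-kB in the cytoplasm, rose by 0.71, Zfp36, which destabilizes cytokine mRNAs, by 0.73, and the sphingosine kinase gene Sphk1 by 0.67. In each case the libraries with both drugs lay above those of vehicle. Socs3, an inhibitor of cytokine receptor signalling, fell from 15.8, 14.5 and 15.6 FPKM to 7.33, 8.01 and 7.95, a difference of -0.97. The other fall was that of the adaptor gene Dok1, by 0.26.

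Fbxo32, Cblb and Trim63 led the rises among ubiquitin ligases of muscle wasting. All 31 listed members were measured, 11 rose and 0 fell in limma, with 1 lower at an unadjusted p under 0.05, and the median difference was 0.07. The called share was 35.5%, all higher, against 12.1% higher and 17.0% lower among all genes. Fbxo32, or atrogin-1, a muscle F-box protein and standard marker of atrophy, was at 16.6, 17.9 and 17.8 FPKM in vehicle, 75.2, 72.4 and 75.2 with dexamethasone, and 74.8, 73.8 and 70.1 with both drugs. The groups given the steroid overlapped and lay above every vehicle library. The difference from vehicle was 2.06 (SE 0.048, limma adjusted p = 5.57e-11), and that between the steroid groups was -0.03 (95% interval -0.13 to 0.08).

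Trim63, or MuRF1, which marks myofibrillar proteins for degradation, was at 21, 21.3 and 18.7 FPKM in vehicle, 34.6, 34.6 and 29.7 with dexamethasone, and 34.5, 31.1 and 34.5 with both drugs. Its rise of 0.71 over vehicle compares with 0.69 for dexamethasone alone, and the interval of the difference with THSG was -0.15 to 0.19. Cblb, a ligase that acts on insulin receptor substrate, rose by 1.18 from 10.2, 9.27 and 8.79 FPKM to 20.4, 21.6 and 22.5. Trim55, a relative of Trim63, rose by 0.25. For 26 of the 31 ligases the interval of the THSG difference was within 0.32. Without the third vehicle library 7 ligases rose.

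Autophagy and lysosome genes had 7 rises and 3 falls among 30 measured, with a median of 0.10, and quantile normalization gave 11 rises. The called share of 33.3% was near the 29.1% of all genes. Atg12, a conjugate needed to extend the autophagosome membrane, was at 12.8, 13.1 and 12.7 FPKM in vehicle and at 30.8, 26.1 and 28.3 with both drugs, a difference of 1.14 (SE 0.062). Depp1, a FOXO-regulated gene, rose by 0.82, the initiation factor gene Atg13 by 0.38 and Gabarapl1, of the family that decorates autophagosomes, by 0.34. None of these groups overlapped between vehicle and both drugs. The falls were those of Gabarap (-0.24), the cathepsin gene Ctsd (-0.19) and the mitophagy receptor gene Bnip3l (-0.17).

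FOXO, insulin and mTOR genes had 11 rises and 6 falls among 29 measured of 35, with a median of 0.05. Among all genes 12.1% were higher and 17.0% lower. Among the inhibitors of mTOR complex 1, Deptor rose from 41.2, 43.9 and 42.5 FPKM to 93.7, 93.4 and 93.7, Sesn1 from 18.1, 19.1 and 20.1 to 53.0, 51.5 and 49.0, and Ddit4 from 16.6, 14.9 and 17.0 to 31.1, 31.8 and 28.1. Their differences were 1.14, 1.42 and 0.90. Foxo3, a transcription factor upstream of atrophy genes, rose by 0.77, whereas Foxo1 was at -0.17 with a limma adjusted p of 0.178 and was not called. The insulin receptor substrates went opposite ways, Irs1 from 21.4, 21.5 and 22.8 FPKM to 12.1, 12.6 and 12.9 (-0.81) and Irs2 from 5.20, 4.87 and 5.25 to 9.38, 9.53 and 8.61 (0.83). Trib3, an Akt-binding pseudokinase, fell by 1.69 and the growth factor binding protein gene Igfbp5 by 0.55. The interval of the THSG difference was within 0.32 for 25 of the 29.

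**Figure D3:**
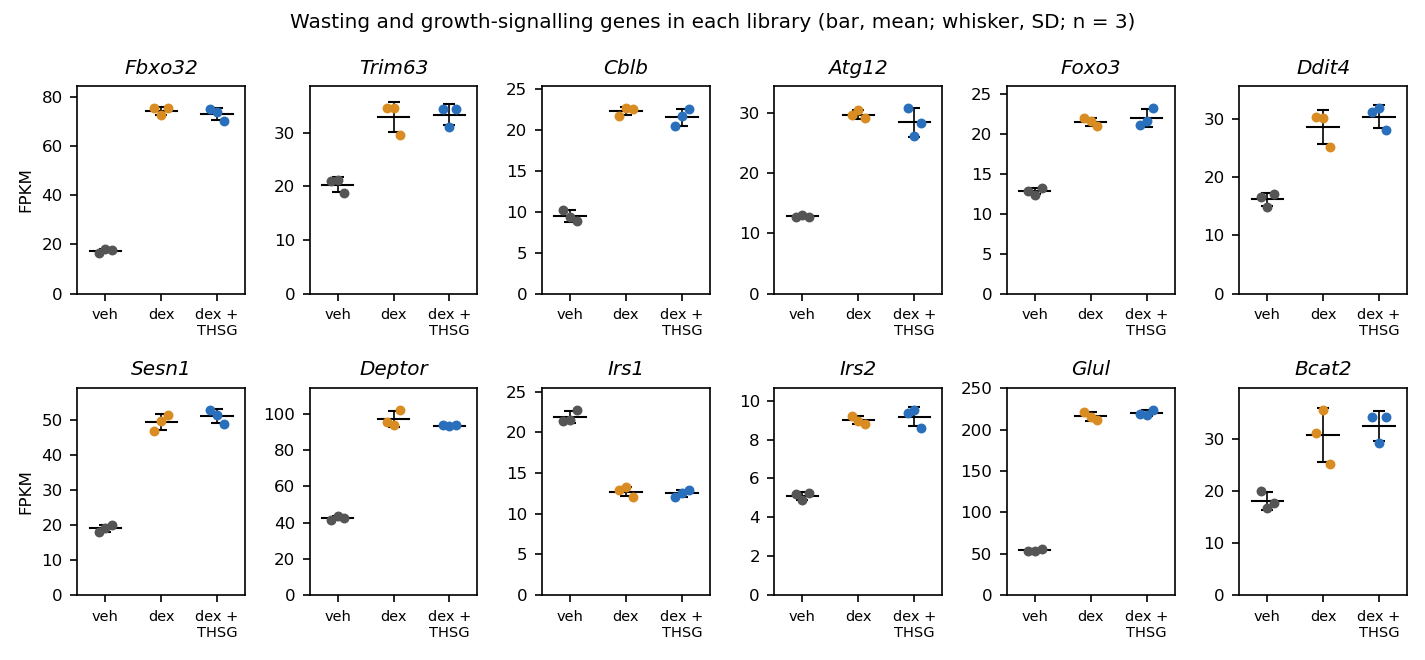
Levels in FPKM of 12 wasting, growth-signalling and amino acid genes are shown in each of the 3 vehicle (veh), 3 dexamethasone (dex) and 3 dexamethasone plus THSG libraries, with the mean as a bar and the SD as a whisker. Irs1 is the one panel in which the steroid libraries lie below vehicle, and Fbxo32 goes from 16.6 to 17.9 in vehicle to 70.1 to 74.8 with both drugs.

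Rises of Pdk4 and Lpl and a fall of G0s2 led the genes of fuel use. Among 23 measured of 32 lipid fuel genes 8 rose and 4 fell, against 12.1% higher and 17.0% lower among all genes. Their median was 0.08. Pdk4, the kinase that switches off pyruvate dehydrogenase, was at 7.90, 7.09 and 7.22 FPKM in vehicle, 78.8, 77.7 and 82.6 with dexamethasone, and 84.4, 79.2 and 79.9 with both drugs. Vehicle was far below both steroid groups, which overlapped. The difference from vehicle was 3.44 (SE 0.054, limma adjusted p = 1.68e-12). Lpl, the lipase that frees fatty acids from lipoproteins, rose from 3.41, 4.11 and 4.17 FPKM to 20.4, 16.5 and 18, a difference of 2.20, and Cd36, which takes up fatty acids, rose by 0.98. Besides G0s2 the falls were those of Ucp2 (-0.61), Acot2 (-0.51) and Ppard (-0.37).

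Amino acid genes had 3 rises and 7 falls among 19 measured of 27, against 12.1% higher and 17.0% lower among all genes. Their median was -0.06. Glul, glutamine synthetase, was at 53.2, 53.6 and 56.0 FPKM in vehicle and at 219, 218 and 224 with both drugs, a difference of 2.02 (SE 0.040). The branched-chain aminotransferases diverged. The mitochondrial Bcat2 rose from 20.01, 16.7 and 17.7 FPKM to 34.2, 29.2 and 34.3, and the cytosolic Bcat1 fell from 9.47, 8.54 and 8.01 to 2.24, 2.65 and 3.40. Slc7a5, a leucine transporter subunit, fell by 0.52, and no library of these groups overlapped for the 4 genes. They were the list's genes of smallest p, a choice that favours such separation. The other rise was that of Bckdha (0.30), a subunit of the branched-chain ketoacid dehydrogenase.

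Most contractile genes were higher with both drugs. Of 46 sarcomere genes 45 were measured, 31 rose and 0 fell in limma, with 0 lower at an unadjusted p under 0.05, and the median difference was 0.28. Myh7, the slow and cardiac myosin heavy chain, was at 5.96, 6.56 and 6.28 FPKM in vehicle and at 19.5, 23 and 21.5 with both drugs, a difference of 1.75 (SE 0.095). The fast chain Myh1 went from 278, 277 and 276 FPKM to 448, 488 and 473, a difference of 0.76, and the groups did not overlap for either chain. Myosin heavy chain genes are close paralogs, so reads may be shared among them. Actc1, cardiac actin, rose by 0.86 and the Z-disc gene Ldb3 by 0.55. Acta1, skeletal actin, was at 3284, 2813 and 2993 FPKM in vehicle and at 3190, 3256 and 3309 with both drugs, overlapped and was not called at 0.10, a value that became -0.0028 after quantile normalization.

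Calcium handling genes had 22 rises among 25 measured of 26, and 0 falls in limma or at an unadjusted p under 0.05, with a median of 0.31. Atp2a1, the fast-muscle calcium pump, was at 287, 273 and 284 FPKM in vehicle and at 425, 440 and 431 with both drugs, a difference of 0.62 (SE 0.048). The kinase gene Camk2d rose by 0.67, the store sensor gene Stim1 by 0.60 and the calcium store protein gene Casq2 by 0.43. Each was without overlap with vehicle.

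Regulators of myogenesis and fusion were divided, with 10 rises and 2 falls among 23 measured of 26 and a median of 0.04. Among all genes 12.1% were higher and 17.0% lower. Myod1, the determination factor, was at 79.3, 77.8 and 82.1 FPKM in vehicle and at 73.2, 71.9 and 68.3 with both drugs, a fall of 0.16 (limma adjusted p = 0.0123) that was not called without the third library given both drugs. Myf5, an early myogenic factor, rose from 8.32, 7.60 and 7.31 FPKM to 16.4, 16.5 and 17.3. Myog, the differentiation factor, overlapped at 405, 390 and 382 FPKM against 415, 381 and 394 and was not called at 0.02, and that sign turned under quantile normalization and when either of 2 libraries was left out. The creatine kinase gene Ckm rose by 0.79, the homeobox gene Six4 by 0.73, and Kirrel1, a fusion-related adhesion gene, fell by 0.71.

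Most measured cell cycle genes were lower. Of 36 listed 27 were measured, 22 fell and 1 rose, with a median of -0.90. Top2a, the mitotic topoisomerase, was at 8.94, 9.80 and 9.15 FPKM in vehicle and at 2.16, 2.97 and 2.26 with both drugs, a difference of -1.89 (SE 0.16). Ccna2, an S-phase cyclin, fell by 1.60, the anaphase activator gene Cdc20 by 1.39 and the G1 cyclin gene Ccnd1 by 1.13, all without overlap. Rrm2, a ribonucleotide reductase subunit, was the 1 rise, from 37.3, 40.1 and 38.3 FPKM to 43.9, 43.2 and 47.8. Several members were near the floor of the table, and with a minimum mean of 5 FPKM 9 falls were counted. In bulk RNA, fewer cells of a type and less RNA per cell cannot be told apart.

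Cholesterol synthesis genes were lower at 23 of 24 measured members, with 1 rise and a median of -0.67. Cyp51, the lanosterol demethylase, was at 55.9, 57.1 and 53.8 FPKM in vehicle and at 31.5, 31.8 and 30.8 with both drugs, a difference of -0.82 (SE 0.044). Sqle fell by 0.77 and Nsdhl by 0.76, both enzymes of the later pathway. Dhcr7, the reductase of its last step, rose from 48.0, 43.7 and 47.1 FPKM to 58.4, 63.7 and 59.1. Vehicle and treated libraries did not overlap for these 4 genes.

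Targets of ATF4, the transcription factor of amino acid shortage, had 16 falls and 1 rise among 21 measured of 29, with a median of -0.52. Asns, asparagine synthetase, was at 23.1, 25.2 and 24.7 FPKM in vehicle and at 12.3, 12.8 and 12.2 with both drugs, a difference of -0.96 (SE 0.079). Aldh18a1, of proline synthesis, fell by 1.08. Vldlr, a lipoprotein receptor, was the 1 rise, from 6.003, 5.75 and 5.05 FPKM to 24.7, 26.3 and 24.4, a difference of 2.15. Atf5, a related factor, was at 68.6, 59.99 and 64.4 FPKM in vehicle, 23.1, 29.1 and 16.9 with dexamethasone, and 30.3, 32.3 and 29.3 with both drugs. All libraries with THSG were above those with dexamethasone and below vehicle. The gap of 0.44 between the steroid groups (95% interval 0.12 to 0.76) was not called. The interval of the THSG difference was within 0.32 for 9 of the 21.

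Matrix genes changed in both directions, with 27 falls and 12 rises among 45 measured of 51 and a median of -0.37. Fbn1, fibrillin of the elastic microfibrils, was at 102, 101 and 103 FPKM in vehicle and at 28.9, 31.1 and 29.8 with both drugs, a difference of -1.76 (SE 0.043). Postn, a matricellular protein, rose from 45.8, 49.9 and 49.7 FPKM to 233, 210.2 and 212, a difference of 2.17, and the basement membrane collagen gene Col4a1 from 35.5, 35.3 and 35.1 to 98.6, 105 and 103, a difference of 1.53. Neither direction showed overlap at these genes. Ccn2, a matricellular growth factor modulator, rose by 1.94.

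Markers of other cells were called in both directions, against 12.1% higher and 17.0% lower among all genes. Of 17 fibroblast and progenitor markers 11 were measured, 8 fell and 2 rose, and their summed level was 4103 to 4864 FPKM in vehicle and 3290 to 3656 with both drugs. Dcn fell by 1.36, and the rises were those of Pdgfra (1.27) and Ly6a (0.64), while Lum, Thy1, Fap, Dpt, Pi16 and Twist1 were not in the table. Satellite and reserve cell markers had 7 falls and 2 rises (Myf5 and Sdc4) among 14 of 17, with summed levels of 367 to 393 and 312 to 319 FPKM. Osteoblast and chondrocyte markers had 4 falls (Bmp4, Spp1, Sox9 and Runx2) among 4 of 14, at 1727 to 1843 and 672 to 718 FPKM. Adipocyte markers had 3 rises among 5 of 13, namely Lpl, Cebpa and Acsl1, at 22 to 23.4 and 59.2 to 66.4 FPKM, and Adipoq, Fabp4 and Plin1 were not in the table. Of 13 neuron and Schwann cell markers 2 were measured, 1 higher and 1 lower, and the 1 immune marker measured was not called. The part of these cells in the matrix, lipid and cell cycle results was not tested.

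Inflammatory genes had 12 falls and 2 rises among 23 measured of 32, with a median of -0.27. Vcam1, a leukocyte adhesion molecule, was at 31.2, 32.4 and 31.5 FPKM in vehicle and at 9.73, 10.3 and 8.43 with both drugs, a difference of -1.73 (SE 0.078). The macrophage growth factor gene Csf1 fell by 1.29 and the chemokine gene Cxcl12 by 0.97. Il6ra, the interleukin-6 receptor, rose from 1.37, 2.07 and 2.35 FPKM to 8.50, 9.96 and 9.63, and the other rise was that of Tlr4 (0.28). Interferon-response genes had 8 falls and 1 rise among 16 of 31, with a median of -0.48. Irf1, a transcription factor of this response, fell by 0.78, the RNA sensor gene Rigi by 0.75, and the membrane protein gene Ifitm3 by 0.53, while Ifit2 rose by 0.38.

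Targets of NRF2, the transcription factor of the antioxidant response, had 10 falls and 4 rises among 27 measured, with a median of -0.13. Among all genes 17.0% were lower and 12.1% higher. Dexamethasone alone gave 15 falls and 4 rises against the same vehicle libraries. The direct comparison of both drugs with dexamethasone called 0 genes. For these targets its median difference was 0.07, and the interval was within 0.32 for 18 of the 27. Gstm1, a glutathione transferase, was at 25.6, 27.5 and 23.7 FPKM in vehicle, 63.0, 59.7 and 64.2 with dexamethasone, and 74.8, 72.3 and 67.0 with both drugs. Fth1, the ferritin heavy chain, was at 1722.5, 1598 and 1461 FPKM in vehicle, 1884, 1967 and 1716 with dexamethasone, and 2290.0, 2244 and 2185 with both drugs. Libraries with THSG were the highest for both genes. They rose over vehicle by 1.48 and 0.49, and their gaps over dexamethasone were 0.20 (95% interval 0.06 to 0.33) and 0.27 (0.11 to 0.43), neither of which was called. Hmox1, heme oxygenase, was at 22.7, 18.6 and 18.1 FPKM in vehicle and 22.6, 21.5 and 24.4 with both drugs, overlapped and was not called at 0.21 (limma adjusted p = 0.0869). It was called at 0.31 without the first vehicle library and at 0.24 with median-ratio scaling (limma adjusted p = 0.0419). The other rises were those of Sod2 (0.23) and Nfe2l2 (0.14), the gene of NRF2 itself. Nqo1 fell by 0.70, and of the pentose phosphate enzyme genes Tkt fell by 0.75 and Pgd by 0.38.

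**Figure D4:**
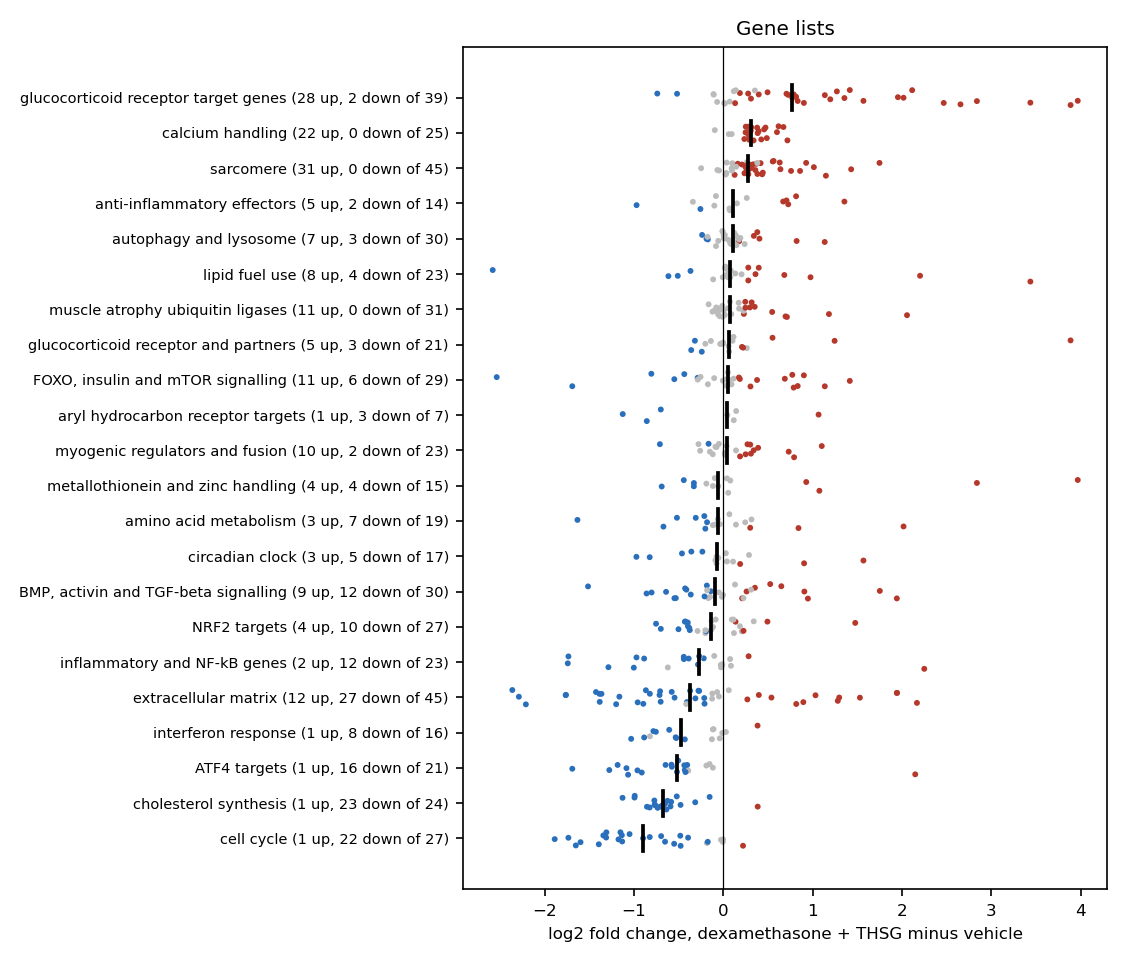
Each point is a measured gene of 1 of 22 lists, placed by its log2 difference between dexamethasone plus THSG and vehicle, with called rises in red, called falls in blue, other genes in grey and the list median as a black bar. The labels give called rises (up) and falls (down), and the medians run from 0.77 for receptor targets to -0.90 for cell cycle genes.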

How the data were processed

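RNA from C2C12 myotubes was sequenced as mRNA in 9 libraries, 3 a group. Per the submitters' processing notes, STAR 2.7.10a, featureCounts and builds GRCm39 and mm39 were used. The deposited values were treated as FPKM. Neither the file headers nor the labels name the unit, and it was taken from the fractional values and similar library sums, so a related length-scaled unit cannot be told apart. Depth is therefore unknown and no count test was used. All columns were mapped by library name. Of 10716 gene identifiers 10670 matched the reference names and 46 did not, and 51 human-style symbols were replaced.

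Differences were fitted with limma 3.58.1 in R 4.3.3 on log2(FPKM + 0.1), which slightly understates low genes, over all 9 libraries with 1 mean per group and an intensity trend. Tests were two-sided with Benjamini-Hochberg adjustment over all genes and a threshold of 0.05. The code was tested on simulated data. A bound of 0.32 on the log2 scale was set for 95% intervals. Pseudocount, scaling, low-value filter, trend, groups fitted, replicate block and each library left out were varied.

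The members and lists were chosen with earlier results of these data known. Named genes were the 8 largest rises and 8 largest falls with a mean of at least 5 and groups apart, the genes of smallest p in each list (at most 4), 29 set genes of which 23 were in the table, and uncalled list members. Gpx3, Mertk, Fam107a, Tgm2, Irs1, Irs2, Dhcr7, Rrm2, Atf5, Col4a1, Dcn, Cebpa, Pdgfra, Rhob, Map3k6, Fkbp1b, Scand1 and the remaining members of counts of 5 or fewer were named after their values were seen. Results for some genes of these lists are not reported here.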

Additional observations from a re-analysis of the deposited data

How the results depend on the processing

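Under the 18 alternative settings the count of genes called against vehicle stayed between 2559 (without the second library given both drugs) and 3189 (without the third dexamethasone library), and for dexamethasone alone between 2956 and 3616. The direct comparison of both drugs with dexamethasone gave 1 call with a replicate block, the pseudogene Rps2-ps10, and 0 to 1 when a library was left out, the 1 being Cks2 without the third dexamethasone library. The block left 3003 calls against vehicle and called Cebpb at 0.35 (adjusted p = 0.0382). No pairing by replicate number was seen, since correlations of same-numbered libraries ran from -0.086 to 0.107 and 4 of 18 best matches shared a number. With so few libraries a group this check cannot exclude a shared culture or batch. Quantile normalization gave 11 rises for autophagy and 3 falls for the clock, and a minimum mean of 5 FPKM, which tests fewer genes, gave 9 falls for the cell cycle, 3 for the clock and 1 for aryl hydrocarbon receptor targets. With a library left out, rises of atrophy ligases ranged from 7 to 11, falls of clock genes from 3 to 5, and bounded receptor targets from 24 to 32. Of 125 named genes 118 kept their direction and side of the threshold in every setting that tested them. Acta1 reversed to -0.00281 and Myog to -0.00249 with quantile normalization. With a library left out Myog ranged from -0.0166 to 0.0444, and it was negative without the third vehicle library (-0.00361) or the first library given both drugs. The other exceptions were Cebpb, Hmox1, Map3k6, Myod1 and Rhob, whose cause was not tested. The unknown depth limits low genes most, and the median half-width of a 95% interval was 0.185.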

Other observations

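Signalling and rhythm genes outside the wasting lists also differed between both drugs and vehicle. Among all genes 12.1% were higher and 17.0% lower. BMP, activin and TGF-beta genes had 9 rises and 12 falls among 30 measured of 36. Tgfbr3, a coreceptor that presents TGF-beta, was at 4.02, 3.67 and 3.31 FPKM in vehicle and at 12.8, 12.5 and 12.4 with both drugs, a difference of 1.75. Tgfbr2, the signalling receptor, fell by 0.80 from 78.9, 74.1 and 74.8 FPKM to 42.9, 43.2 and 44.3, and the follistatin relative Fstl1 fell by 0.64. Clock genes had 3 rises and 5 falls among 17 measured of 22. The repressor gene Nfil3 rose from 13.3, 12.9 and 10.9 FPKM to 25.5, 21.1 and 23, and Per1 and Csnk1e were the other rises. Per3 fell by 0.97, Dbp by 0.82, Bhlhe40 by 0.46, Cry1 by 0.36 and Bhlhe41 by 0.23. Those falls were 3 without the third vehicle library or without the second or the third library given both drugs.

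Zinc transporters were called in both directions, against 12.1% higher and 17.0% lower among all genes. Of 15 measured genes of the metallothionein and zinc list of 17, 4 rose (Mt1 and Mt2 among them), 4 fell and 7 were not called, and the median was -0.06. The importer genes Slc39a10 and Slc39a14 rose by 1.08 and 0.93, and Slc30a1, Slc39a7, Slc30a7 and Slc39a1 were lower by 0.33 to 0.69. Aryl hydrocarbon receptor genes had 1 rise and 3 falls among 7 measured of 9. Ahr itself was at 5.68, 6.01 and 6.73 FPKM in vehicle, 3.60, 4.29 and 4.19 with dexamethasone, and 3.68, 3.23 and 3.13 with both drugs, Aldh3a1 fell by 1.13, Nqo1 by 0.70, and Ugt1a6a, of a family with shared exons, rose by 1.07.

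Fkbp1b and Scand1 were picked after their values were seen, for their gaps between the steroid groups. Fkbp1b, a ryanodine receptor partner, was at 3.10, 4.28 and 4.17 FPKM in vehicle, 2.25, 2.64 and 2.27 with dexamethasone, and 4.34, 4.23 and 5.64 with both drugs. Scand1 was at 22.2, 17.5 and 13.2 FPKM in vehicle, 5.69, 6.83 and 7.36 with dexamethasone, and 15.5, 16.8 and 10.4 with both drugs. For both genes the libraries with THSG lay above those with dexamethasone and overlapped with vehicle. The gaps were 0.95 for Fkbp1b (95% interval 0.62 to 1.29) and 1.07 for Scand1 (0.63 to 1.50). That of Scand1 was the largest of all genes, and 4 genes, Fkbp1b not among them, differed at least 2-fold. These intervals do not allow for the choice of genes by their gaps. Neither gap was called in limma after adjustment over all genes, where the smallest adjusted p was 0.227.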
